A study of Mus musculus with 12 samples.

Results

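The loci described here are the rows of the gene table that carry a running number in place of a gene name or gene identifier, 400 of 46731 rows, chosen by that label and not by any measured value. They were measured by RNA-seq in ATDC5 cells, a mouse line derived from teratocarcinoma and used as a chondrocyte model, in 12 libraries from 4 groups with 3 libraries each. Control cells carried a non-targeting hairpin (shRNA-NC, genotype labelled wildtype) and knockdown cells a hairpin against *Ddx5* (shRNA-*Ddx5*), which encodes an RNA helicase that acts in splicing and transcription. Both lines were made by stable lentiviral integration, so that each genotype is represented by 1 hairpin line, and both were taken after 6 h without stimulation (medium) or with IL-1β and TNF-α (cytokines). Each locus is called here by its running number in the table (locus 22, for example) and was placed by the coordinates of the table, which follow GRCm39.

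Rows without a name appear in such tables when aligned reads form transcribed blocks that an annotation does not hold. They can be long noncoding RNAs, ends of known genes that run past their annotated borders, processed pseudogenes (copies of an mRNA written back into the genome by reverse transcription, without introns), or copies of transposable elements. IL-1β and TNF-α act through the transcription factor NF-κB, which binds near the starts of cytokine response genes and of noncoding RNAs.

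The libraries held between 14119199 and 19276520 fragments on all rows, and the loci took 0.211 to 0.325% of them. The FPKM of *Ddx5* was 319 ± 22.3 (SD, n = 3) in shRNA-NC and 103 ± 13.9 in shRNA-*Ddx5* cells in medium, and 310 ± 14.9 and 99.5 ± 5.27 with cytokines. Of the cartilage markers, *Sox9* (mean FPKM 27.5) and *Col2a1* (12.4) were present in shRNA-NC cells in medium, while *Acan*, *Hapln1*, *Matn1* and *Col9a1* were at or near 0. Of the markers of pluripotent and blood cells, *Sox2* had a mean FPKM of 12.3 in these cells, *Nanog* had means from 0.0327 to 0.463 over the 4 groups, and *Pou5f1* and *Zfp42* were at 0 in every library, as were the blood cell genes *Ptprc* and *Cd3e*. The third blood marker, *Cd68*, a lysosomal membrane protein of macrophages, had means from 1.10 to 1.76. The cells were measured in bulk, so that fewer cells with a transcript and less of it per cell cannot be told apart.

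Sequences of the loci on which the results turn were read from GRCm39. Locus 60, the most abundant, holds on the strand opposite to its own the letters TTAAGGTAG (in capitals), a part of the site in the 28S ribosomal RNA gene that the endonuclease I-PpoI cuts, and the 300 bases at chr3:5925391-5925690 are shown on that plus strand. Locus 22 had the largest rise on the log2(FPKM + 1) scale after knockdown in both conditions. Locus 241 had the largest difference on that scale between the knockdown effects with and without cytokines, a difference that the voom alternative did not call. For both, the 250 bases before the start of the row and its first 50 bases (in capitals) are shown, on the minus strand, at chr1:88803179-88803478 and chr11:78763901-78764200.
locus 60: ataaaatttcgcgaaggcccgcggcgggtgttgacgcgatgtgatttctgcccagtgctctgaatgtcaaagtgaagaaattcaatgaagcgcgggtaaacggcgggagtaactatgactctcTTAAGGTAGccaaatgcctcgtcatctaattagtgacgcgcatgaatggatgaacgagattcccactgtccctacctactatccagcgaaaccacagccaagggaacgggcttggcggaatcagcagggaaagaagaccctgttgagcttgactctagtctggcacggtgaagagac
locus 22: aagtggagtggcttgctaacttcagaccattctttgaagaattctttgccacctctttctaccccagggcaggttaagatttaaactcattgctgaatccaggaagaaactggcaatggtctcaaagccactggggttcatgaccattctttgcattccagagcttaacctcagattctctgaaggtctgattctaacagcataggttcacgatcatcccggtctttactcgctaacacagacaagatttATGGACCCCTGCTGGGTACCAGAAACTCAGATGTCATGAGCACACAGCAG
locus 241: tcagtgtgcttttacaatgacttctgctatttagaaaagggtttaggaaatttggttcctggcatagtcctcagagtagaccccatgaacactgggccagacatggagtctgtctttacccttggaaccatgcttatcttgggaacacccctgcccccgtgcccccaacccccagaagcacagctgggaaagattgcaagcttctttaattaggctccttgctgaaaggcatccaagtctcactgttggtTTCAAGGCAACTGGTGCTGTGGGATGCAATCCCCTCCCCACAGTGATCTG

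Loci 246 and 369 followed locus 241 in the size of that difference, and their start windows (chr11:83619856-83620155 on the minus and chr19:30282161-30282460 on the plus strand, again 250 bases before to 50 after the start) each hold 1 match to an NF-κB form, in capitals. The form searched was GGANTTTCC on either strand (on the other strand GGAAANTCC). The matches lay 171 bases before the start of locus 246 and 152 bases before that of locus 369. The window of locus 241 printed above held no match. A match of these letters is a description of the window and not a binding site. Of the 395 loci with a chromosome, 7 (1.77%) held the form in this window, and of the tested ones 6 of 233 (2.58%), against 412 of 32851 RefSeq promoters of the same length (1.25%, from a table of build GRCm38).
locus 246: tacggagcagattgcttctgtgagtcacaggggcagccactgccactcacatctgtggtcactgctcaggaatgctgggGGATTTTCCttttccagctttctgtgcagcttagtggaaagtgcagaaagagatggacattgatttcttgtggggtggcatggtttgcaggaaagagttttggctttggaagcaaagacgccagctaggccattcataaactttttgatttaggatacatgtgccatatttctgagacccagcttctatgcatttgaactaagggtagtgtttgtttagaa
locus 369: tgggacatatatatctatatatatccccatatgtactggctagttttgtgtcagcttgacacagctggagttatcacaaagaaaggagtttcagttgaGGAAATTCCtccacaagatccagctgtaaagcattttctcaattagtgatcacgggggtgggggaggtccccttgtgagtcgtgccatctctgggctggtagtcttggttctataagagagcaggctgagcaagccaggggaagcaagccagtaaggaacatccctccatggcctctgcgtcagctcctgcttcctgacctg

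Locus 386 begins 9 bases past the row of *Mir221*, the hairpin of miR-221, on the minus strand of chromosome X. The last 40 bases of the hairpin row, the 9 bases between (in capitals) and the first 100 bases of the locus are shown at chrX:19012424-19012572, above the mature miR-221-3p of RefSeq with its seed, bases 2 to 8, in capitals.
Mir221 to locus 386: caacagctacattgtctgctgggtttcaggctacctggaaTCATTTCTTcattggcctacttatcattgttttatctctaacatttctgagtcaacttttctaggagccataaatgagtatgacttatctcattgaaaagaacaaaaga
miR-221-3p: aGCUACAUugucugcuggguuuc

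Loci 160 and 265 are copies of mRNAs. Locus 160 matches *Nme2*, a nucleoside diphosphate kinase, on the strand opposite to the one given in the table, and locus 265 matches *Rps18*, a protein of the small ribosomal subunit, on its own strand. A stretch of 150 bases of each (chr8:70463288-70463437 on the minus and chr13:28441619-28441768 on the plus strand) is shown above the same stretch of the coding sequence, with differing bases in capitals. The copies differed at 2 and 1 of the 150 bases. No other gap-free stretch of that length in the aligned coding sequence held more differing bases.
locus 160: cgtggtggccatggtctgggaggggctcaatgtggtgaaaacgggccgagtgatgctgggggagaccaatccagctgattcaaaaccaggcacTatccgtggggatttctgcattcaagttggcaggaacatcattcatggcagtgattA
Nme2: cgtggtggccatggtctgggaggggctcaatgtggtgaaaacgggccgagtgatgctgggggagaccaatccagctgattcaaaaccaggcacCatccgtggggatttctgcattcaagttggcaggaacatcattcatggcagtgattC
locus 265: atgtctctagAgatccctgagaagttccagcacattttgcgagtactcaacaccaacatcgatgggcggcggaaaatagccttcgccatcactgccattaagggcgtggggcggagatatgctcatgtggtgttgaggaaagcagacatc
Rps18: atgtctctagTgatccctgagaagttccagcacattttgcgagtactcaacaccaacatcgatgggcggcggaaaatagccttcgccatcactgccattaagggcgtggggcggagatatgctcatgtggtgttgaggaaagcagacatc

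The 400 loci lay on every chromosome from 1 to 19 and on X and Y, most on chromosome 10 (32 loci) and chromosome 1 (30), with 5 on unplaced scaffolds. The exonic length ranged from 201 to 10052 bases with a median of 979, against 1604 for the named rows. A single block made up 217 loci, and 183 were spliced. Measured between facing ends, the nearest named row lay at a median distance of 5612 bases and at most 417082, it lay within 5 kb for 194 loci and beyond 50 kb for 55, and 54 loci lay within 5 kb past the end of a named row on the same strand. None of the 52 genes of a cytokine response list and none of the 38 genes of a matrix list was the nearest named row of any locus. Genes of these lists can still lie near a locus as a second or farther row, and their distances were not counted.

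Set against GENCODE mouse release 39, a larger annotation of the same assembly, 198 of the 395 placed loci shared at least 1 exonic base with an annotated gene on the same strand. The largest class, 115 loci, overlapped an exon of a long noncoding RNA (lncRNA) on the same strand. A further 112 lay outside every gene, 48 overlapped a pseudogene and 35 a protein-coding exon on the same strand. These classes were exclusive, with same-strand exons taken first and, on a strand, pseudogenes before protein-coding genes before lncRNA. Among loci without a same-strand exon, opposite-strand exons were overlapped by 30 for lncRNA, 28 for pseudogenes, 4 for protein-coding genes and 1 for another type. Loci with same-strand exons can overlap opposite-strand exons too and are not in these counts. A further 22 lay inside a gene without touching an exon. The overlaps were often small, and at least 50% of the span lay in same-strand exons for 89 loci.

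Protein domains were listed in the table for 109 loci. The domains of 33 loci were those of retroelements, such as reverse transcriptase, 19 were ribosomal proteins, 5 were KRAB or C2H2 zinc fingers and 52 were others, while 291 had none. Of the 214 placed loci of a single block, 97 matched a GENCODE transcript of a distant protein-coding gene with a named row, the only transcripts counted as matches. The match covered at least 50% of their length with an identity of at least 90% (median 98.9%). It ran in the sense of that transcript for 59 and in the other for 38. Of the 64 single-block loci over an annotated pseudogene exon, 60 had such a match.

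Of the 400 loci, 41 had no fragment in any library and 124 had some but did not pass the filter. The other 235 were tested, since 3 libraries or more gave them an FPKM of 1 or above, and 53 of them reached it in all 12. Of the tested loci, 20 passed through the libraries of 1 group only, so that they had to differ from other groups. Others passed through both groups on the same side of a comparison and were not counted. Among them were loci 31, 34, 147, 249 and 283 for knockdown and loci 126, 178, 251 and 365 for cytokines. For these a difference in that comparison was built into the filter. The level of the tested loci was low. Their median of the mean FPKM was 1.19, against 9.34 for the 12133 named rows tested, 172 loci lay below 2 and 21 reached 10.

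**Figure D1:**
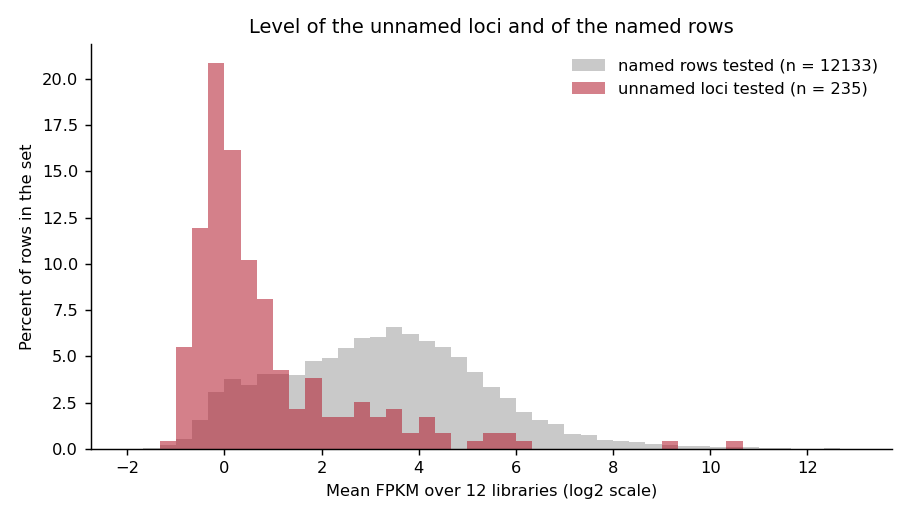
Distribution of the mean FPKM over 12 libraries (horizontal axis, log2 scale) for the 235 unnamed loci tested and the 12133 named rows tested, each as percent of its set. The loci gather near 1 FPKM (median 1.19) and the named rows near 10 (median 9.34), and 2 loci stand above 100.

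The most abundant locus, locus 60 (chr3:5925391-5925886, minus strand), had FPKM values of 1534, 928 and 341 in shRNA-NC and 1489, 1088 and 1024 in shRNA-*Ddx5* cells in medium. With cytokines it had 777, 1111 and 2135 in shRNA-NC and 2469, 2273 and 2558 in shRNA-*Ddx5* cells. The libraries of shRNA-NC cells spread several-fold within each condition, and no comparison of locus 60 passed the test. Locus 169 (chr8:15569771-15570127, minus strand), the other locus above 100 FPKM, had FPKM values of 484, 416 and 348 in shRNA-NC and 639, 733 and 665 in shRNA-*Ddx5* cells in medium, and of 408, 342 and 700 and 914, 738 and 764 with cytokines. The groups did not overlap in either condition. It rose after knockdown by a log2 fold change of 0.72 ± 0.23 (adjusted p = 0.0218) in medium and of 0.80 ± 0.23 (adjusted p = 0.0133) with cytokines, where ± gives the SE and the adjusted p, here and below, is that of limma with Benjamini-Hochberg adjustment over all rows tested. The call in medium was lost without the filter (adjusted p = 0.0591) and when replicate 2 or 3 of either medium group was left out, and that with cytokines without shRNA-NC replicate 2 or shRNA-*Ddx5* replicate 1 of the cytokine groups. Together these 2 loci took 0.0312 to 0.151% of the fragments of a library, and all the others 0.159 to 0.201%. The libraries were made from RNA selected on poly-T, and the part of carried-over ribosomal RNA in these values was not tested.

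Several of the next most abundant loci were copies of mRNAs. Locus 352 (chr17:82717288-82718320, minus strand), over the pseudogene *Rpsa-ps7* and 98.6% identical to *Rpsa*, a protein of the small ribosomal subunit, had FPKM values of 70.3, 50.5 and 63.01 in shRNA-NC and 79.1, 60.2 and 71.4 in shRNA-*Ddx5* cells in medium. Locus 80 (chr4:69843416-69844410, minus strand), a copy of *Stmn1*, a regulator of microtubules, had group means from 57.3 ± 4.16 to 67.9 ± 10.8 FPKM (SD, n = 3). Locus 160 (chr8:70463071-70463714, plus strand), the *Nme2* copy shown above, had means from 45.1 ± 20.2 to 77.5 ± 3.27, and locus 6 (chr1:105383666-105386618, plus strand), a copy of *Capza1*, which caps actin filaments, from 27.9 ± 5.24 to 39.7 ± 5.98. None of these 4 passed the test in any comparison. Locus 265 (chr13:28441586-28442129, plus strand), the *Rps18* copy, had means from 38.6 ± 3.55 to 58.5 ± 16.5, while *Rps18* itself had means from 1522 ± 337 to 2333 ± 204 FPKM. The locus was lower after knockdown in medium by 0.55 ± 0.20 (adjusted p = 0.0405) on the log2 scale, a call that was lost without the filter (adjusted p = 0.0921), with a value of -0.35 without shRNA-NC replicate 2. *Rps18* fell in the same comparison by 0.44 (adjusted p = 0.0435). Over the 42 tested loci with a distant match, the level of the locus was a median 14.9% of that of the matched gene, under 10% in 16 and over 100% in 8. Copy and gene share sequence, and how the counting divided fragments between them was not tested.

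Locus 221 (chr10:79246910-79253651, minus strand), with the envelope domain of a retrovirus, was the most abundant locus with a retroelement domain. Its FPKM was 47.2, 50.4 and 51.9 in shRNA-NC and 36.2, 42.6 and 40.5 in shRNA-*Ddx5* cells in medium. With cytokines it was 34.5, 34.6 and 35.7 in shRNA-NC and 52.3, 52.8 and 52.2 in shRNA-*Ddx5* cells. Knockdown cells were thus lower in medium and higher with cytokines, with no overlap of the groups in either condition. The log2 fold change of knockdown was -0.32 ± 0.07 (adjusted p = 0.00404) in medium and 0.57 ± 0.07 (adjusted p = 9.07e-05) with cytokines. Its interaction, that is the knockdown effect with cytokines minus that in medium, was 0.89 ± 0.10 (adjusted p = 0.000504).

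After *Ddx5* knockdown in medium, 90 of the 235 loci (38.3%) passed an adjusted p of 0.05 in limma on log2(FPKM + 1), of which 51 were higher (21.7%) and 39 lower (16.6%). Over all 12368 rows tested the shares were 47.0% called, 25.3% higher and 21.7% lower. The difference between these shares was not tested, and the loci had lower levels than the named rows (median 1.19 against 9.34 FPKM). The 3 libraries of each group did not overlap for 107 loci (45.5%), against 53.5% of all rows. Of the 90 called, 10 had passed the filter in 1 group only. With cytokines, knockdown called 81 loci (34.5%), 55 higher (23.4%) and 26 lower (11.1%), against 45.6%, 23.5% and 22.1% of all rows, and groups did not overlap for 112 loci (47.7%), against 61.6%. Of the 81, 15 had passed the filter in 1 group only. The median log2 fold change of the loci was 0.01 in medium and 0.12 with cytokines, and that of all rows 0.03 and 0.01.

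The largest rise on the log2(FPKM + 1) scale was that of locus 22 (chr1:88794940-88803228, minus strand), whose start is shown above. It is a spliced locus that shares 9.88% of its span with exons of the lncRNA *Gm29337*. Its FPKM in medium was 0.359, 0.511 and 0.493 in shRNA-NC and 20.5, 11.2 and 12.7 in shRNA-*Ddx5* cells. With cytokines it was 0.799, 1.03 and 0.315 in shRNA-NC and 13.1, 12.4 and 10.5 in shRNA-*Ddx5* cells. All 6 knockdown libraries lay above all 6 control libraries. The log2 fold change was 3.40 ± 0.20 (adjusted p = 6.80e-07) in medium and 2.94 ± 0.20 (adjusted p = 1.60e-06) with cytokines. The nearest named row, *Gm4753*, lay 56738 bases away and was at 0 in every library, and the nearest tested one, *Arl4c*, lay 165 kb away.

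Locus 31 (chr2:24371223-24374291, plus strand) lies 5612 bases before the start of *Pax8*, a transcription factor of thyroid and kidney, and overlaps exons that GENCODE gives to *Gm13415* and *Gm27193*. It had no fragment in any of the 6 shRNA-NC libraries. In shRNA-*Ddx5* cells its FPKM was 2.33, 1.68 and 1.83 in medium and 1.12, 2.16 and 1.85 with cytokines. Against a floor of 3 fragments over the control group, which covers counting error only, this was at least 26.9-fold higher in medium and at least 23.3-fold higher with cytokines. On the log2(FPKM + 1) scale it rose by 1.55 ± 0.14 (adjusted p = 9.33e-06) and 1.42 ± 0.14 (adjusted p = 1.60e-05). It passed the filter through knockdown libraries only, so that a rise was built into its choice and these values are a description. The nearest tested rows, *Gm13415* as the table places it (15.8 kb) and *Gm39769* (38.0 kb), named here after their values were seen, rose as well in medium, by 1.57 (adjusted p = 9.48e-07) and 1.89 (adjusted p = 3.20e-07). *Pax8* stayed below the filter, with a mean FPKM of 0.0128 ± 0.0221 in shRNA-NC and 0.451 ± 0.0790 in shRNA-*Ddx5* cells in medium.

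Locus 165 (chr8:103962417-103972566, plus strand), outside every GENCODE gene, had FPKM values of 0.0478, 0 and 0.131 in shRNA-NC and 2.27, 2.94 and 3.50 in shRNA-*Ddx5* cells in medium. With cytokines it had no fragment in shRNA-NC cells and values of 0.893, 0.866 and 0.688 in shRNA-*Ddx5* cells, at least 14.9-fold above the floor. It passed the filter through the knockdown libraries in medium only. The knockdown groups lay above the controls, and that in medium above that with cytokines. It rose by 1.87 ± 0.12 (adjusted p = 9.54e-07) in medium and by 0.86 ± 0.12 (adjusted p = 0.000159) with cytokines. Locus 249 (chr11:117820542-117832498, minus strand) lies 24.4 kb from *Socs3*, a feedback inhibitor of cytokine signalling that was singled out here after its values were seen. Its mean FPKM was 0.467 ± 0.137 in shRNA-NC and 3.16 ± 0.0583 in shRNA-*Ddx5* cells in medium, and 0.807 ± 0.117 and 2.81 ± 0.334 with cytokines. It rose by 1.51 ± 0.10 (adjusted p = 1.33e-06) and 1.07 ± 0.10 (adjusted p = 1.13e-05) after knockdown, and *Socs3* by 0.96 (adjusted p = 0.00252) and 1.50 (adjusted p = 0.000134). Locus 249 passed the filter through knockdown libraries only, so that its rise was built into its choice. Locus 314 (chr15:11819054-11829189, minus strand), 10793 bases past the end of *Npr3*, the clearance receptor of natriuretic peptides, had 1.26, 0.473 and 0 in shRNA-NC and 3.09, 2.58 and 2.82 in shRNA-*Ddx5* cells in medium. It rose by 1.36 ± 0.26 (adjusted p = 0.00129), while *Npr3* had mean FPKM values of 8.97 ± 0.987 and 10.5 ± 1.20.

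On chromosome 8, the tested loci 178, 179, 180, 181 and 183 lie on the minus strand between 116482090 and 116874418, and of these 178, 179 and 183 (chr8:116482090-116499063, chr8:116724269-116750859 and chr8:116797727-116874418) are among those with the largest changes. Locus 183, which spans 76692 bases, had FPKM values of 6.51, 8.24 and 10.1 in shRNA-NC and 19.03, 19.3 and 21.99 in shRNA-*Ddx5* cells in medium. With cytokines it had 2.99, 2.76 and 2.34 in shRNA-NC and 5.23, 5.61 and 5.83 in shRNA-*Ddx5* cells. It was higher with knockdown and lower with cytokines, and the 4 groups did not overlap. The knockdown log2 fold changes were 1.20 ± 0.13 (adjusted p = 3.37e-05) in medium and 0.83 ± 0.13 (adjusted p = 0.000395) with cytokines, and those of cytokines -1.32 ± 0.13 (adjusted p = 2.30e-05) in shRNA-NC and -1.69 ± 0.13 (adjusted p = 2.18e-06) in shRNA-*Ddx5* cells. Locus 178 went from 0.927 ± 0.220 to 3.88 ± 0.576 after knockdown in medium, a rise of 1.34 ± 0.12 (adjusted p = 1.18e-05), and with cytokines it stood at 0.0857 ± 0.0512 in shRNA-NC and 0.443 ± 0.153 in shRNA-*Ddx5* cells, falls of 0.82 ± 0.12 (adjusted p = 0.000484) and 1.76 ± 0.12 (adjusted p = 1.03e-06). Locus 178 passed the filter through libraries in medium only, so that its falls with cytokines were built into its choice. Locus 179 moved in opposite directions in the 2 conditions. Knockdown took it from 1.003 ± 0.219 to 2.20 ± 0.699 in medium (log2 fold change 0.66 ± 0.18 (adjusted p = 0.00979)) and from 1.44 ± 0.302 to 0.509 ± 0.263 with cytokines (-0.70 ± 0.18 (adjusted p = 0.00720)). Loci 180 and 181, described here after their values were seen, lie between loci 179 and 183. Locus 180 rose after knockdown in medium by 0.66 ± 0.15 (adjusted p = 0.00353) and was not called with cytokines (0.28 ± 0.15, adjusted p = 0.141). Locus 181 was called after knockdown in neither condition (0.22 ± 0.26, adjusted p = 0.506 and 0.43 ± 0.26, adjusted p = 0.187).

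**Figure D2:**
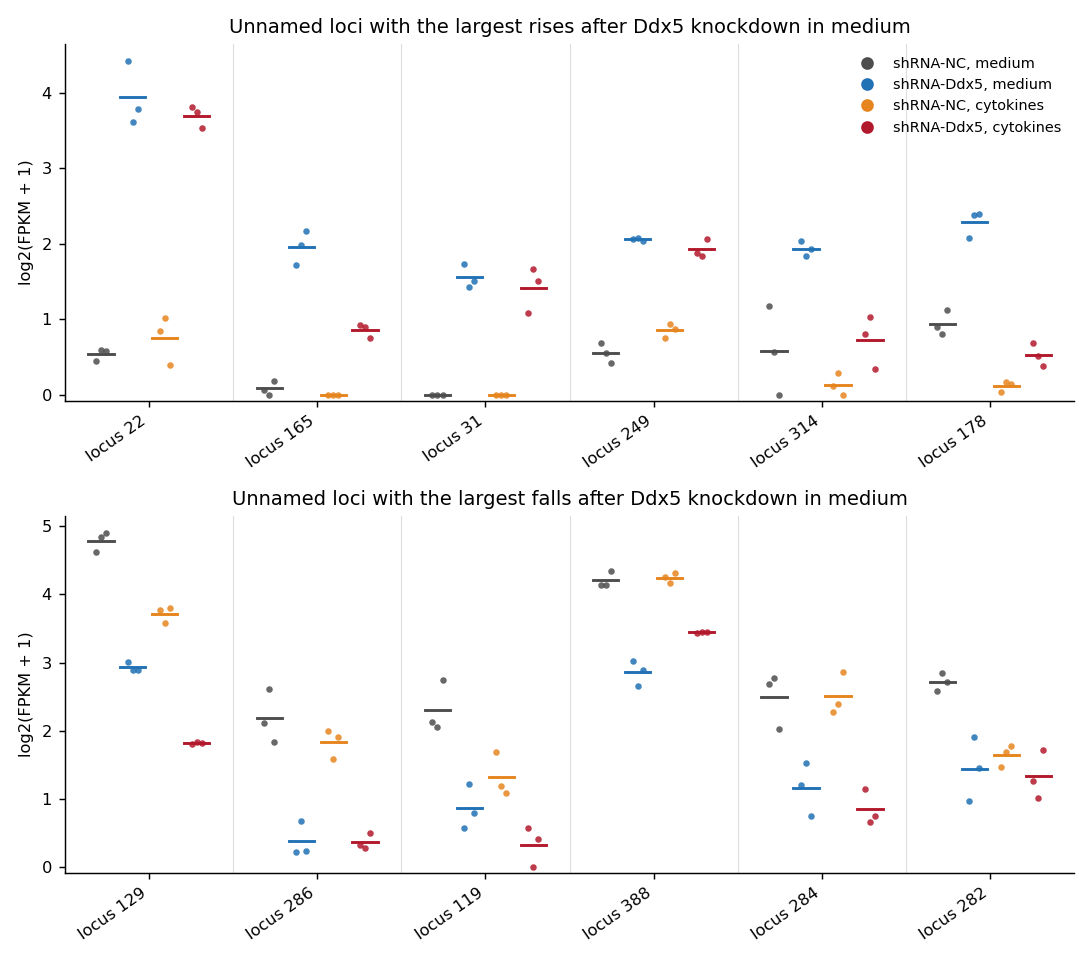
FPKM on the log2(FPKM + 1) scale (vertical axis) of the 6 loci with the largest rises (top) and the 6 with the largest falls (bottom) on that scale after *Ddx5* knockdown in medium. There is 1 point per library and a line at each group mean. Locus 22 stands highest among the rises in both knockdown groups, and locus 129 is lower with knockdown and lower with cytokines.

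The largest fall in medium on the log2(FPKM + 1) scale, which understates changes of low rows, was that of locus 129 (chr6:143265036-143279544, minus strand), a spliced locus of 8731 exonic bases. Its FPKM in medium was 23.6, 27.5 and 28.8 in shRNA-NC and 7.06, 6.45 and 6.44 in shRNA-*Ddx5* cells. With cytokines it was 12.6, 10.9 and 12.9 in shRNA-NC and 2.49, 2.58 and 2.53 in shRNA-*Ddx5* cells. The 4 groups did not overlap, with control cells in medium highest and knockdown cells with cytokines lowest. The log2 fold change of knockdown was -1.85 ± 0.09 (adjusted p = 1.76e-07) in medium and -1.89 ± 0.09 (adjusted p = 1.44e-07) with cytokines, and that of cytokines -1.07 ± 0.09 (adjusted p = 5.83e-06) in shRNA-NC and -1.11 ± 0.09 (adjusted p = 2.99e-06) in shRNA-*Ddx5* cells. Locus 119 (chr6:143297980-143304317, plus strand), close to it on the other strand, fell after knockdown by 1.44 ± 0.24 (adjusted p = 0.000578) in medium and by 1.00 ± 0.24 (adjusted p = 0.00566) with cytokines. The nearest tested named row, *Etnk1*, lay 111 kb from locus 129.

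Locus 286 (chr14:27284242-27298544, plus strand) carries domains of L1 retroelements. Its FPKM in medium was 3.35, 5.11 and 2.58 in shRNA-NC and 0.172, 0.608 and 0.182 in shRNA-*Ddx5* cells, with no overlap, and it fell by 1.81 ± 0.20 (adjusted p = 3.24e-05) in medium and by 1.45 ± 0.20 (adjusted p = 0.000134) with cytokines. Locus 388 (chrX:85576604-85579959, minus strand), which shares 32.1% of its span with the lncRNA *Gm61907*, had 16.6, 16.6 and 19.3 in shRNA-NC and 7.16, 5.28 and 6.44 in shRNA-*Ddx5* cells in medium. The groups stood well apart, and it fell by 1.35 ± 0.10 (adjusted p = 2.58e-06) in medium and by 0.80 ± 0.10 (adjusted p = 8.08e-05) with cytokines. Locus 147 (chr7:47773923-47782167, minus strand) had mean FPKM values of 1.59 ± 0.164 in shRNA-NC and 0.116 ± 0.0473 in shRNA-*Ddx5* cells in medium, and of 2.01 ± 0.353 and 0.113 ± 0.0551 with cytokines. It fell by 1.21 ± 0.11 (adjusted p = 7.72e-06) and 1.43 ± 0.11 (adjusted p = 2.59e-06).

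Locus 284 (chr13:120130811-120131461, minus strand) lies 9 bases from *LOC118568062*, which runs on the other strand. Its mean FPKM went from 4.78 ± 1.49 in shRNA-NC to 1.29 ± 0.595 in shRNA-*Ddx5* cells in medium and, with cytokines, from 4.81 ± 1.30 to 0.823 ± 0.337, falls of 1.33 ± 0.25 (adjusted p = 0.00117) and 1.66 ± 0.25 (adjusted p = 0.000276). Of its windows of 100 bases, 97.8% occur more than once in the genome, at a median of 15 places, so that its fragments cannot be tied to it alone. *LOC118568062* fell too, by 0.89 (adjusted p = 4.76e-05) and 1.37 (adjusted p = 2.65e-06), while *Zwilch*, whose transcript locus 284 matches at 96.4% identity, rose by 0.40 (adjusted p = 0.0181) and 0.45 (adjusted p = 0.0101). Locus 282 (chr13:74699311-74711959, minus strand) carries KRAB and C2H2 zinc finger domains, found together in a large family of repressors of transposable elements. It fell by 1.28 ± 0.23 (adjusted p = 0.000861) in medium, from 5.60 ± 0.586 to 1.81 ± 0.899. All 5 loci with such domains were tested, and after knockdown 4 fell and none rose in medium, and 2 fell and none rose with cytokines, where 21.7% and 22.1% of all rows were lower. Locus 83 (chr4:97411359-97411638, minus strand), a copy of 280 bases of *Hnrnpc*, an RNA-binding protein, had 17.3, 8.77 and 4.94 in shRNA-NC and 1.73, 2.02 and 1.36 in shRNA-*Ddx5* cells with cytokines. The control libraries differed by more than 3-fold but lay above all knockdown libraries. The fall of 1.92 ± 0.34 (adjusted p = 0.000886) was the largest on the log2(FPKM + 1) scale in that comparison. *Hnrnpc* itself was not called there, at -0.02 (adjusted p = 0.900).

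After knockdown with cytokines the largest rises on the log2(FPKM + 1) scale were those of loci 22, 241, 283, 246, 369 and 34. Locus 283 (chr13:112577788-112583843, minus strand) lies 16761 bases before the start of *Il6st*, which encodes gp130, the shared receptor subunit of IL-6 family cytokines, and runs the opposite way. Its FPKM was 0.250, 0.236 and 0.0490 in shRNA-NC and 1.57, 2.27 and 1.66 in shRNA-*Ddx5* cells in medium. With cytokines it was 0.265, 0.669 and 0.255 in shRNA-NC and 5.30, 4.98 and 6.20 in shRNA-*Ddx5* cells. The knockdown libraries lay above the controls in both conditions, and highest with cytokines. It rose by 1.26 ± 0.14 (adjusted p = 4.29e-05) in medium and by 2.23 ± 0.14 (adjusted p = 1.02e-06) with cytokines. Loci 283 and 34 passed the filter through knockdown libraries only, so that a rise was built into their choice. *Il6st* had mean FPKM values of 43.9 ± 4.27 and 64.3 ± 1.13 in medium and of 63.9 ± 3.87 and 126 ± 3.25 with cytokines, and rose by 0.55 (adjusted p = 0.000275) and 0.97 (adjusted p = 5.43e-06) after knockdown. Locus 34 (chr2:50750099-50775612, plus strand) went from 0.293 ± 0.0971 to 1.65 ± 0.661 in medium and, with cytokines, from 0.330 ± 0.158 to 3.09 ± 0.146, rises of 1.01 ± 0.16 (adjusted p = 0.000363) and 1.63 ± 0.16 (adjusted p = 1.39e-05).

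Cytokines called 72 of the 235 loci (30.6%) in shRNA-NC cells, 34 higher (14.5%) and 38 lower (16.2%), against 33.8% of all rows, 18.6% higher and 15.2% lower. Groups did not overlap for 95 loci (40.4%), against 45.7% of all rows. In shRNA-*Ddx5* cells they called 68 loci (28.9%), 38 higher (16.2%) and 30 lower (12.8%), against 27.0%, 13.5% and 13.5% of all rows. Groups did not overlap for 101 loci (43.0%), against 47.3%. Of the called loci, 10 and 15 had passed the filter in 1 group only, and the median log2 fold changes of the loci were 0.02 and 0.08, against 0.02 and 0.00 for all rows.

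The largest rise with cytokines on the log2(FPKM + 1) scale was that of locus 354 (chr18:11760192-11760940, plus strand), a block of 749 bases with a reverse transcriptase domain. It lies 5393 bases before the start of *Rbbp8*, which encodes the DNA repair protein CtIP. Its FPKM in shRNA-NC cells was 2.07, 1.58 and 1.33 in medium and 27.8, 43.9 and 43.8 with cytokines. The shRNA-*Ddx5* cells had 1.95, 1.48 and 0.667 in medium and 39.5, 45.2 and 48.4 with cytokines. All 6 cytokine libraries stood far above all 6 in medium. The log2 fold change was 3.87 ± 0.22 (adjusted p = 2.23e-07) in shRNA-NC and 4.30 ± 0.22 (adjusted p = 6.79e-08) in shRNA-*Ddx5* cells. *Rbbp8* had mean FPKM values of 8.86 ± 0.594 and 8.99 ± 1.30 in shRNA-NC cells. Over 79.7% of its length locus 354 matches a transcript of *Noct*, nocturnin, an enzyme with a circadian rhythm, in the same sense at 93.97% identity. *Noct* rose with cytokines too, from 7.10 ± 0.225 to 24.7 ± 2.58 FPKM in shRNA-NC (1.66 (adjusted p = 1.37e-07)) and from 7.45 ± 0.732 to 18.3 ± 0.309 in shRNA-*Ddx5* cells (1.20 (adjusted p = 1.48e-06)). Of the windows of 100 bases of locus 354, 88.3% occur more than once in the genome, at a median of 30 places, so that the values can hold fragments of other copies of the element or of *Noct*, and how the counting divided them was not tested.

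Locus 365 (chr19:4110930-4116515, plus strand) is a block of 5586 bases. Its FPKM in shRNA-NC cells was 0.321, 0.220 and 0.262 in medium and 15.1, 9.99 and 12.95 with cytokines. The shRNA-*Ddx5* cells had 0.207, 0.436 and 0.268 in medium and 8.35, 7.29 and 8.26 with cytokines. The cytokine libraries lay far above those in medium, with the knockdown libraries below the controls among them. It rose by 3.42 ± 0.13 (adjusted p = 9.83e-09) in shRNA-NC and by 2.78 ± 0.13 (adjusted p = 3.58e-08) in shRNA-*Ddx5* cells, and the knockdown log2 fold change with cytokines was -0.60 ± 0.13 (adjusted p = 0.00328). The nearest tested rows were *Gstp2* and *Gstp1*, glutathione transferases, at 18.7 kb and 23.0 kb, and 58.9% of its windows occur more than once in the genome, at a median of 2 places.

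Locus 386 (chrX:19011281-19012523, minus strand), which follows the *Mir221* hairpin shown above and shares 87.4% of its span with the lncRNA *Gm26652*, had FPKM values in shRNA-NC cells of 1.47, 1.80 and 1.54 in medium and 10.8, 8.28 and 7.03 with cytokines. In shRNA-*Ddx5* cells it had 0.271, 1.93 and 1.29 in medium and 3.40, 4.32 and 4.42 with cytokines. The cytokine libraries lay above those in medium in both lines. It rose by 1.88 ± 0.25 (adjusted p = 0.000212) and 1.30 ± 0.25 (adjusted p = 0.00269). With cytokines it was lower in knockdown cells (log2 fold change -0.93 ± 0.25 (adjusted p = 0.0107)), a call lost with a pseudocount of 0.1 (adjusted p = 0.0868). The row of *Mir221* itself had mean FPKM values from 0 ± 0 to 0.433 ± 0.375 and was not tested, and the mature miRNA was not measured.

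Locus 332 (chr17:27773799-27775472, plus strand) ends 76 bases before the row of *Hmga1*, a chromatin protein that bends DNA, on the same strand, and overlaps exons that GENCODE gives to *Hmga1*. Its FPKM in shRNA-NC cells was 0.667, 0.206 and 0.0795 in medium and 2.43, 2.74 and 4.29 with cytokines. In shRNA-*Ddx5* cells it was 0.0363, 0 and 0 in medium and 0.108, 0.225 and 0.152 with cytokines. It was high in control cells with cytokines, through which alone it passed the filter, and low in the other 3 groups. It rose with cytokines in shRNA-NC cells by 1.66 ± 0.18 (adjusted p = 4.35e-05), and the knockdown log2 fold change with cytokines was -1.81 ± 0.18 (adjusted p = 1.64e-05). *Hmga1* itself had mean FPKM values of 13.8 ± 6.95 in shRNA-NC and 2.43 ± 0.846 in shRNA-*Ddx5* cells in medium, and of 72.3 ± 10.5 and 11.97 ± 0.549 with cytokines. Its log2 fold change was 2.41 (adjusted p = 9.91e-05) for cytokines in shRNA-NC cells and -2.49 (adjusted p = 5.12e-05) for knockdown with cytokines.

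Locus 251 (chr11:120642933-120645911, minus strand), with reverse transcriptase domains, lies 7709 bases from *Hmga1b*, a relative of *Hmga1*. Its FPKM in shRNA-NC cells was 0, 0.165 and 0.0223 in medium and 1.13, 1.95 and 1.68 with cytokines. In shRNA-*Ddx5* cells it was 0.143, 0.112 and 0.317 in medium and 4.79, 4.69 and 4.54 with cytokines. Cytokine libraries lay above those in medium, and the knockdown ones highest. It rose with cytokines by 1.27 ± 0.13 (adjusted p = 2.42e-05) and 2.26 ± 0.13 (adjusted p = 1.59e-07), and with cytokines it was higher after knockdown by 1.15 ± 0.13 (adjusted p = 3.52e-05). *Hmga1b* had the opposite sign after knockdown with cytokines, -2.47 (adjusted p = 0.000158). Locus 292 (chr14:8719256-8720507, minus strand) rose with cytokines in shRNA-NC cells, from 0.140 ± 0.0887 to 1.76 ± 0.460 (1.26 ± 0.13 (adjusted p = 3.01e-05)), and after knockdown in medium, to 1.86 ± 0.0698 (1.33 ± 0.13 (adjusted p = 1.65e-05)).

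**Figure D3:**
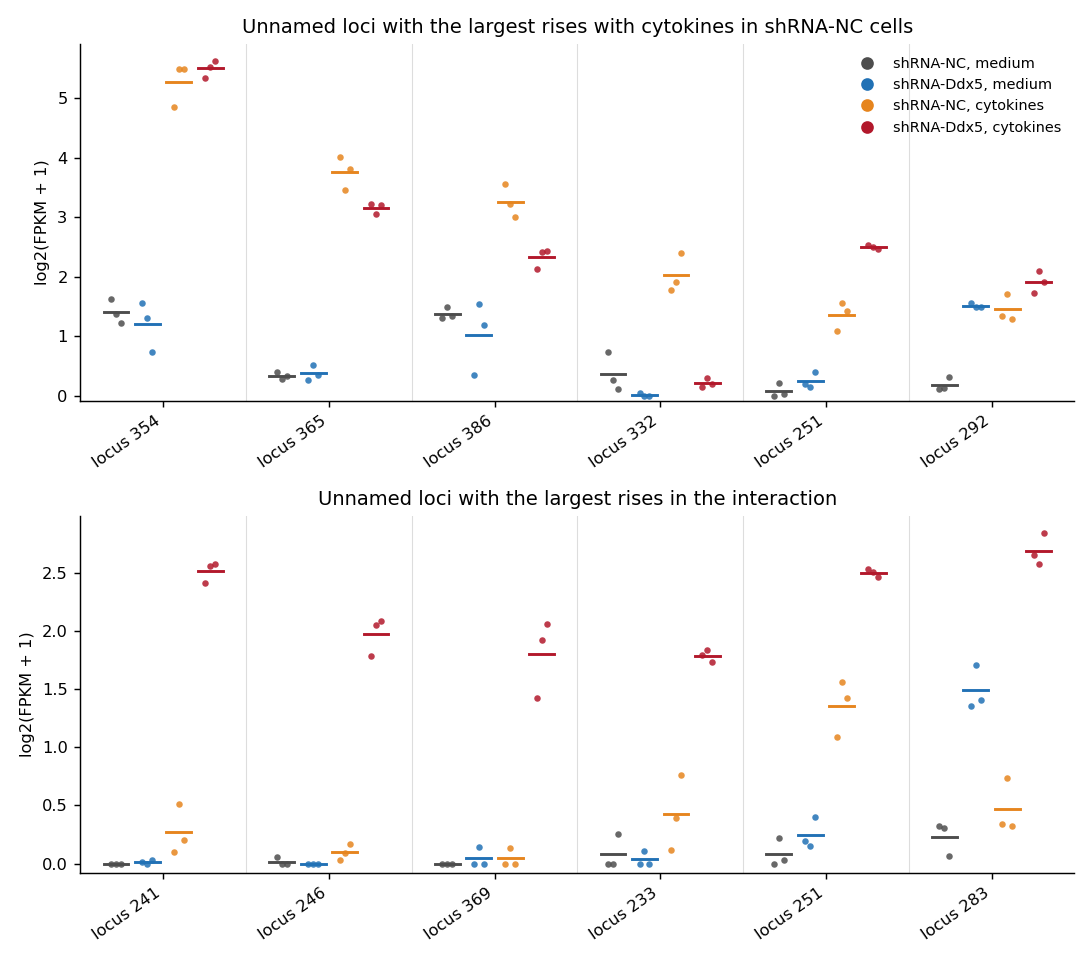
FPKM on the log2(FPKM + 1) scale (vertical axis) of the 6 loci with the largest rises with cytokines in shRNA-NC cells (top) and the 6 with the largest positive interaction (bottom) on that scale. There is 1 point per library and a line at each group mean. Loci 354 and 365 are high in both cytokine groups, whereas loci 241, 246, 369 and 233 are high in knockdown cells with cytokines and near 0 in medium.

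Among the loci that fell with cytokines in both lines, locus 91 (chr5:34331151-34333854, plus strand) was the most abundant. In the table it lies 70 bases past the end of *Mxd4*, a repressor of the MYC network, on the other strand, while GENCODE places exons of *Mxd4* across 97.2% of its span. Its FPKM in shRNA-NC cells was 39.04, 37.5 and 26.2 in medium and 14.4, 20.4 and 16.9 with cytokines, without overlap. It fell by 0.94 ± 0.16 (adjusted p = 0.000992) in shRNA-NC and by 0.74 ± 0.16 (adjusted p = 0.00526) in shRNA-*Ddx5* cells, and *Mxd4* fell in shRNA-NC cells by 0.86 (adjusted p = 0.00658). Strand use is not given in the sources used here, so that reads of the locus and of *Mxd4* cannot be told apart. Locus 126 (chr6:125395191-125402415, minus strand) fell from 2.63 ± 0.545 to 0.599 ± 0.263 in shRNA-NC (-1.18 ± 0.19 (adjusted p = 0.000606)) and from 2.43 ± 0.640 to 0.635 ± 0.281 in shRNA-*Ddx5* cells (-1.06 ± 0.19 (adjusted p = 0.00130)). It passed the filter through libraries in medium only, so that a fall with cytokines was built into its choice. Locus 220 (chr10:78895237-78899305, minus strand), 903 bases past the end of *2610008E11Rik* on the same strand, passed the filter through shRNA-NC cells in medium only and fell in shRNA-NC cells by 1.09 ± 0.23 (adjusted p = 0.00367), and *2610008E11Rik* by 0.91 (adjusted p = 0.00178). Locus 61 (chr3:58237316-58241461, minus strand) fell in shRNA-NC cells by 1.01 ± 0.13 (adjusted p = 0.000178), from 1.47 ± 0.0769 to 0.224 ± 0.0640.

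The interaction passed the test for 23 loci (9.79%), 13 higher (5.53%) and 10 lower (4.26%), against 8.21% of all rows, 3.46% higher and 4.75% lower. Of the 23, 13 had passed the filter in 1 group only, so that a difference between groups was built into their choice. The median interaction was 0.07 for the loci and -0.01 for all rows. With voom precision weights on the recovered fragments 9 loci were called, and with a pseudocount of 0.1, 11.

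The 4 loci with the largest positive interaction, loci 241, 246, 369 and 233, reached 1 FPKM only in knockdown cells with cytokines. They passed the filter through that group alone, so that a difference from the other groups was fixed by the filter and their interactions are given as a description. Locus 241 (chr11:78757908-78763950, minus strand), which shares 10.1% of its span with the lncRNA *Gm73970*, had no fragment in shRNA-NC cells in medium and FPKM values of 0.0108, 0 and 0.0197 in shRNA-*Ddx5* cells. With cytokines it had 0.0743, 0.426 and 0.151 in shRNA-NC and 4.34, 4.89 and 4.97 in shRNA-*Ddx5* cells, the latter from 405 to 441 fragments. The knockdown libraries with cytokines lay far above all others. With cytokines it was higher after knockdown by 2.24 ± 0.11 (adjusted p = 1.90e-07), and its interaction was 2.23 ± 0.16 (adjusted p = 3.53e-05), a call lost under voom (adjusted p = 0.141). Locus 233 (chr11:78739439-78752110, plus strand), beside it on the other strand and 4714 bases past the end of *Lyrm9*, had mean FPKM values of 0.0649 ± 0.112 and 0.0270 ± 0.0468 in medium and of 0.367 ± 0.310 and 2.46 ± 0.127 with cytokines in shRNA-NC and shRNA-*Ddx5* cells, from at most 28 fragments. Its interaction of 1.41 ± 0.21 (adjusted p = 0.00213) was not called under voom (adjusted p = 0.152). With a pseudocount of 0.1 the interaction was 3.95 for locus 241 and 2.93 for locus 233.

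On the other side of both lies *Nos2*, the inducible nitric oxide synthase and a target of NF-κB, at 47.7 kb from locus 241 and 59.5 kb from locus 233, singled out here after its values were seen. *Nos2* had mean FPKM values of 0.00516 ± 0.00894 and 0.140 ± 0.0616 in medium and of 63.2 ± 30.02 and 396 ± 11.1 with cytokines in shRNA-NC and shRNA-*Ddx5* cells, with an interaction of 2.55 (adjusted p = 0.000847). The interaction of *Lyrm9* did not pass the test (0.25 (adjusted p = 0.280)).

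Locus 246 (chr11:83617324-83619905, minus strand) had FPKM values of 0.0376, 0 and 0 in shRNA-NC cells and no fragment in shRNA-*Ddx5* cells in medium. With cytokines it had 0.0232, 0.0620 and 0.124 in shRNA-NC and 2.46, 3.14 and 3.25 in shRNA-*Ddx5* cells. In knockdown cells it was at least 133-fold higher with cytokines than the floor in medium, and its interaction was 1.90 ± 0.14 (adjusted p = 3.75e-05). The nearest tested rows, again named after their values were seen, were *Wfdc21* (17.9 kb) and *Wfdc17* (20.2 kb), of the whey acidic protein domain family, with interactions of 1.64 (adjusted p = 7.85e-05) and 1.31 (adjusted p = 0.000427). The chemokine gene *Ccl3*, 77.1 kb away, had 3.13 (adjusted p = 3.74e-05), and *Acer3*, whose transcript locus 246 matches at 94.8% identity, had 0.01 (adjusted p = 0.985). Locus 369 (chr19:30282411-30286467, plus strand) had at most 1 fragment in any library of the other 3 groups and FPKM values of 1.68, 2.79 and 3.18 in knockdown cells with cytokines, from 15 to 27 fragments. Its interaction was 1.71 ± 0.21 (adjusted p = 0.000626), and the nearest tested row, *Uhrf2*, lay 211 kb away.

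Of the 15 loci named here with a called interaction, 6 (loci 179, 221, 246, 292, 369 and 388) kept the call under voom and 9 lost it. Of the 15, loci 113, 115, 165, 233, 241, 246, 332 and 369 had passed the filter in 1 group only. Among the 9, the direction turned for loci 178 (0.26), 251 (-0.72) and 113 (1.12). The interaction of locus 388 (0.55 ± 0.14 (adjusted p = 0.0370)) was also lost without the filter (adjusted p = 0.0585). Loci 113 (chr6:117386187-117389579, plus strand) and 115 (chr6:117518713-117523382, plus strand) lie on either side of *6820426E19Rik*, a row named here after its values were seen. They rose after knockdown in medium by 1.03 ± 0.12 (adjusted p = 4.41e-05) and 1.06 ± 0.12 (adjusted p = 4.54e-05), and fell with cytokines in knockdown cells by 1.10 ± 0.12 (adjusted p = 2.87e-05) and 1.02 ± 0.12 (adjusted p = 7.12e-05). *6820426E19Rik* rose by 1.52 (adjusted p = 1.77e-06) and fell by 1.42 (adjusted p = 1.54e-06) in the same comparisons.

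The loci were next set beside the named row nearest to them. Of the 117 tested loci with a named row within 5 kb, 91 had a neighbour that was tested too. Among these, 29 loci were called after knockdown in medium, of which 21 had the sign of the neighbour and 8 the other sign. After knockdown with cytokines 19 of 24 had the same sign, and with cytokines 19 of 23 in shRNA-NC and 12 of 14 in shRNA-*Ddx5* cells. Over the 91 pairs, Spearman's rho between both log2 fold changes was 0.41, 0.43, 0.42 and 0.46 in these comparisons and 0.07 for the interaction. Over the 23 pairs from 5 to 50 kb it was 0.08, 0.13, 0.57, 0.36 and -0.42. The pairs share libraries, and these values describe the loci and carry no test.

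**Figure D4:**
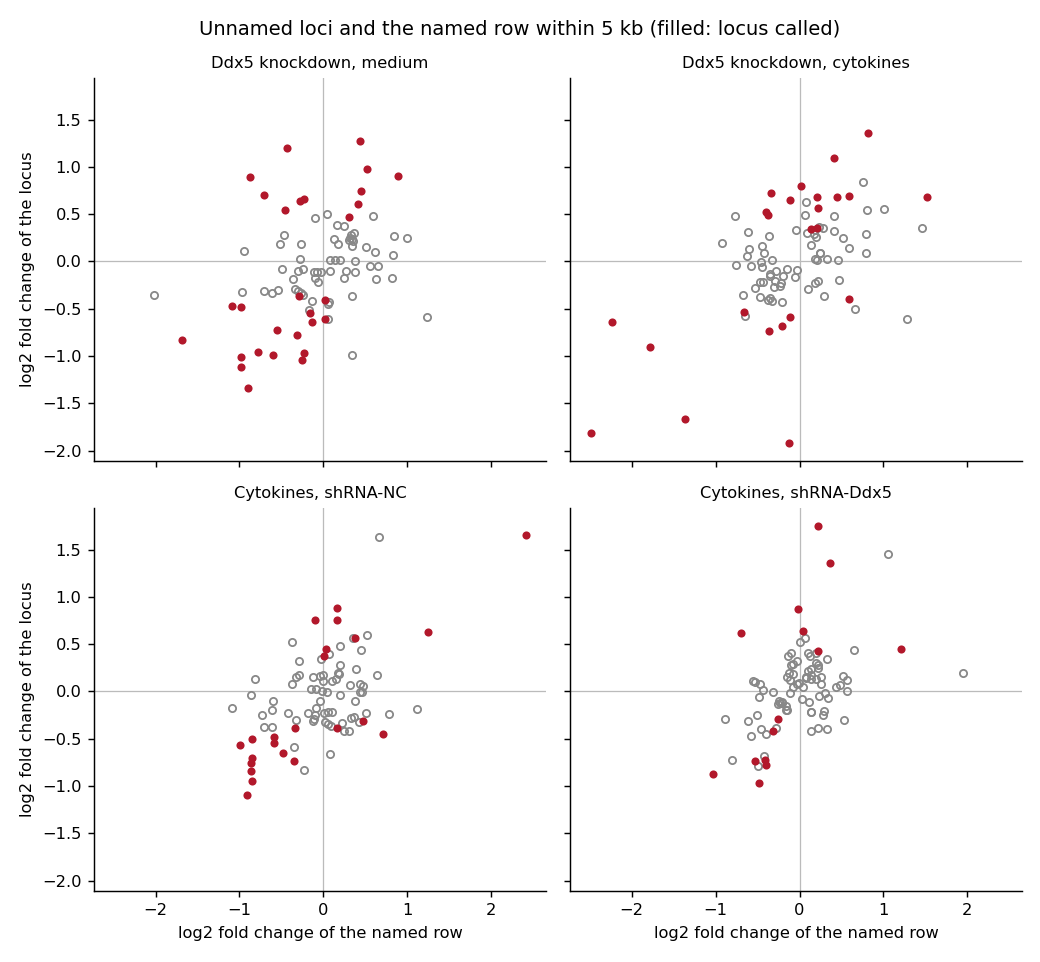
Log2 fold change of a locus (vertical axis) against that of its nearest named row within 5 kb (horizontal axis), 91 pairs in each of 4 comparisons, with loci past the adjusted threshold filled. Most filled points lie in the lower left and upper right, as counted for the same sign (21 of 29, 19 of 24, 19 of 23 and 12 of 14).

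Over all rows tested, 25.3% rose and 21.7% fell after knockdown in medium, and 23.5% rose and 22.1% fell with cytokines. By class, the 80 tested loci over a lncRNA exon on the same strand gave 21 rises (26.2%) and 11 falls (13.8%) in medium and 25 (31.2%) and 7 (8.75%) with cytokines. The 63 outside every gene gave 18 (28.6%) and 10 (15.9%) in medium and 19 (30.2%) and 6 (9.52%) with cytokines. The 26 over a protein-coding exon on the same strand gave 1 rise (3.85%) and 8 falls (30.8%) in medium and 1 (3.85%) and 4 (15.4%) with cytokines. The share of rises in medium was near that of all rows in the lncRNA and intergenic classes, and no difference between classes, or between a class and the table, was tested. The 24 over a pseudogene exon on the same strand gave 3 rises and 3 falls in medium after knockdown, and 3 rises and no fall with cytokines in shRNA-NC cells, where 18.6% of all rows rose and 15.2% fell.

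**Figure D5:**
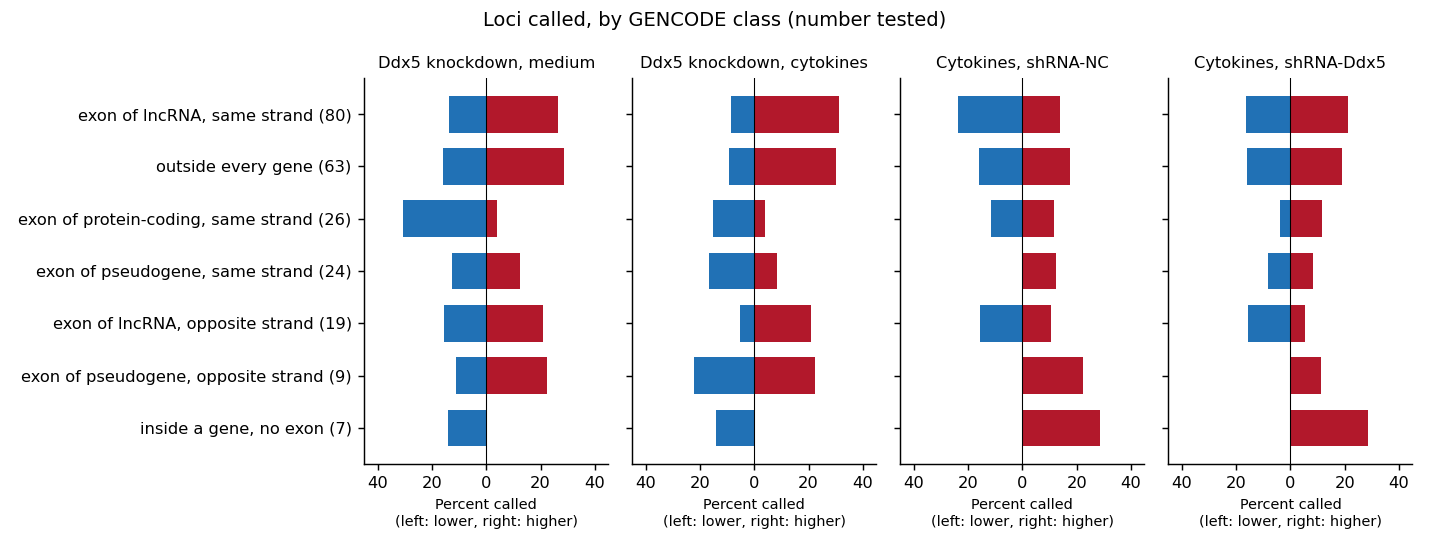
Percent of tested loci called higher (right) or lower (left) in 4 comparisons, by GENCODE class with the number tested in brackets. The lncRNA and intergenic classes hold more higher than lower calls after knockdown, and the protein-coding class, with 26 loci, more lower ones.

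The 19 tested loci with retroelement domains gave 4 rises (21.1%) and 5 falls (26.3%) after knockdown in medium and 7 (36.8%) and 2 (10.5%) with cytokines, against 25.3%, 21.7%, 23.5% and 22.1% of all rows. Cytokines raised 6 (31.6%, against 18.6% of all rows) and lowered 2 in shRNA-NC cells, and raised 8 (42.1%, against 13.5%) and lowered none in shRNA-*Ddx5* cells. These differences from the table were not tested. Among the loci with such domains was locus 59 (chr3:144810032-144819956, plus strand), at 9925 bases among the 3 longest tested loci, with domains of gag, a retroviral protease and reverse transcriptase. Its FPKM was 0.469, 0.293 and 0.362 in shRNA-NC and 1.79, 2.42 and 2.26 in shRNA-*Ddx5* cells in medium, and 0.984, 0.968 and 1.13 and 3.56, 3.31 and 3.06 with cytokines. The 4 groups did not overlap. It rose after knockdown by 1.20 ± 0.10 (adjusted p = 6.06e-06) in medium and 1.09 ± 0.10 (adjusted p = 1.07e-05) with cytokines, and 50.2% of its windows occur more than once in the genome. The 10 tested loci with ribosomal protein domains gave 3 rises and no fall with cytokines in shRNA-NC cells and 2 and none in shRNA-*Ddx5* cells, where 18.6% and 13.5% of all rows rose.

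Another of the long loci, locus 337 (chr17:36582986-36592293, plus strand), 90 bases before the start of *Trim39*, had means from 1.06 ± 0.234 to 1.73 ± 0.344 and passed no comparison. Just inside the filter were loci 51 and 232, with a third-highest FPKM of 1.01 each, and just outside loci 146 and 312, with 0.995 and 0.996. Locus 51, which passed through knockdown cells in medium only, had log2 fold changes of 0.63 ± 0.14 (adjusted p = 0.00360) for knockdown in medium and -0.87 ± 0.14 (adjusted p = 0.000786) for cytokines in shRNA-*Ddx5* cells, and locus 232 one of -0.55 ± 0.19 (adjusted p = 0.0378) for knockdown in medium.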

How the data were processed

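Poly-T-selected RNA of 12 libraries was sequenced (4 groups of 3, which the study describes as independent replicates). The authors deposited FPKM values per gene (fragments scaled to exonic length and library size), with length and coordinates of each row. The submitters' notes name HISAT2 2.0.5, featureCounts 1.5.0-p3, DESeq2 1.20.0, GATK 3.7 and the build mm10, but the coordinates follow GRCm39: of 36889 symbols compared with GENCODE mouse release 39, 99.959% of spans overlapped. How the unnamed rows were assembled and whether strand was used is not given in the sources used here.

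Only rows that 3 libraries or more gave an FPKM of 1 or above entered limma 3.58.1 (R 4.3.3) on log2(FPKM + 1), with 1 fit over 4 groups, trended empirical Bayes and Benjamini-Hochberg adjustment over all 12368 rows at 0.05, two-sided. A fold change on this scale understates the change of low rows. Dividing each FPKM by the worth of 1 fragment gave whole numbers within 0.001 for 100.0% of values, and the fragments gave the depth and a voom alternative. Distances, overlaps, repeated windows of 100 bases and matches (blastn 2.17.0, identity of at least 90% over at least 50% of the locus) were computed with Python 3.11.15, pandas 2.3.3 and pysam 0.24.0, and drawn with matplotlib 3.10.9. Scripts were tested on simulated data.

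Named are the 10 loci highest in level, the 3 longest tested, and 2 on each side of the filter. Also named are the 6 with the largest called change on the log2(FPKM + 1) scale in each direction of the 5 comparisons. A result for 1 of them is not reported here. Members and lists were chosen with earlier results of these data known. Alternatives were a pseudocount of 0.1, other filters, other scalings, no trend, separate fits, a replicate block and leaving out each library.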

Additional observations from a re-analysis of the deposited data

Results flagged for a closer look

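For 15 of the loci named above the knockdown effect on the log2(FPKM + 1) scale differed between cytokines and medium, by the interaction term of limma at an adjusted p of 0.05. Since 1 is added to each FPKM, such a difference can arise at low levels although the ratio between the lines was alike. The log2 difference was positive for loci 241 (2.23), 246 (1.90), 369 (1.71), 233 (1.41), 251 (0.98), 283 (0.97), 221 (0.89) and 388 (0.55). It was negative for loci 332 (-1.46), 179 (-1.36), 165 (-1.01), 178 (-0.93), 292 (-0.87), 115 (-0.83) and 113 (-0.71). Loci 113, 115, 165, 233, 241, 246, 332 and 369 had passed the filter on low values in 1 group only, so that a difference between groups was fixed by their choice and their interactions are a description. Under voom 6 of the 15 kept the call, and with a pseudocount of 0.1, 7 did.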

How the results depend on the processing

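The count of loci called ranged over fits that leave out 1 library from 77 to 91 for knockdown in medium (lowest without shRNA-NC replicate 2 in medium), from 69 to 89 for knockdown with cytokines, from 58 to 74 and from 54 to 79 for cytokines in shRNA-NC and shRNA-*Ddx5* cells, and from 16 to 24 for the interaction. With a filter of 1 FPKM in 6 libraries, which fewer loci pass, the counts were 55, 48, 39, 34 and 7. These are out of fewer loci than the 235 of the other counts given here and cannot be compared with them directly. The shares over all rows in the alternative runs are not given here. The interaction count was 11 with a pseudocount of 0.1 and 9 with voom. Loci past the end of a named row numbered 15 within 1 kb and 88 within 10 kb, and 89 loci had at least 50% of their span in same-strand GENCODE exons.

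Of the 118 called changes of named loci, 91 kept their call and direction in every alternative run that tested them and 27 lost the call in at least 1. Not every run tested all of them: the filter of 1 FPKM in 6 libraries left 77, and the separate fits gave no interaction. Under voom, which replaces the log2(FPKM + 1) scale and adds weights, the interactions of loci 178 (0.26), 251 (-0.72) and 113 (1.12) turned. Which of these changes turned them was not tested. Of 18 pairs of same-numbered libraries, 4 had a correlation of their deviations above 0.1 (range -0.394 to 0.448). The correlations between shRNA-NC and shRNA-*Ddx5* cells in medium were 0.448, 0.0425 and 0.313 for replicates 1, 2 and 3. Whether replicate numbers pair the libraries was not tested. With the replicate number as a block, 89, 77, 69, 65 and 19 loci were called.

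Most loci lie near 1 FPKM, where a library holds few fragments, so that a p that misses the threshold does not show that the levels were alike.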
